A study of Mus musculus with 6 samples.

Results

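The 10 genes described here encode 6 S100 proteins (S100a4, S100a6, S100a8, S100a9, S100a10 and S100a11) and 4 annexins (Anxa1, Anxa2, Anxa3 and Anxa5). They were taken by symbol from a table of read counts for 55401 mouse gene IDs, and all 10 matched 1 ID each (ENSMUSG00000001020 for S100a4, ENSMUSG00000001025 for S100a6, ENSMUSG00000056054 for S100a8, ENSMUSG00000056071 for S100a9, ENSMUSG00000041959 for S100a10, ENSMUSG00000027907 for S100a11, ENSMUSG00000024659 for Anxa1, ENSMUSG00000032231 for Anxa2, ENSMUSG00000029484 for Anxa3 and ENSMUSG00000027712 for Anxa5). RNA of whole kidneys was sequenced from poly(A)-selected libraries, 3 labelled control and 3 labelled DKD, for diabetic kidney disease, in a study of SETDB2 and podocytes. The labels enter control and DKD as genotypes and name no allele, agent, strain, sex, age or time. They also do not tie a library to a single animal, so the p-values cover only library-to-library spread, and that may be technical.

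S100 proteins are small calcium sensors that change shape when calcium binds and then grip other proteins. Annexins bind the phospholipids of membranes when calcium rises, and they take part in membrane repair, vesicle traffic and the control of inflammation. The families meet in complexes, of which the best known joins an S100a10 dimer with Anxa2, while S100a8 and S100a9 pair as calprotectin in neutrophils and monocytes. In kidney, several of these genes are known to be raised in damaged tubular epithelium and in infiltrating or scar-forming cells.

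Library totals ran from 64816622 to 77417638 counts. Levels are given in CPM, counts scaled to library size with the TMM factor of each library, and 3 counts correspond to 0.0353 to 0.0505 CPM. Low values in the table gather at multiples of 4: in control replicate 1, 958 genes had a count of 4, beside 468 genes at 3 and 280 at 5. A count is therefore not a single read pair throughout, and values under about 12 counts are less precise than they look. DKD replicate 1 stood apart from the other DKD libraries. It held 2321 CPM of Alb, the liver's main secreted protein, where the other libraries held 7.20 to 14.7 CPM, and the summed level of 10 hepatocyte genes was 4070 CPM there against 209 to 401 CPM elsewhere. Results are given with and without that library. The part of hepatocyte transcripts in its levels was not tested. In bulk tissue, fewer cells of a type and less RNA per cell cannot be told apart.

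The stretches before the start sites of these genes are shown for 3 members, because 8 of the 10 were high in the same libraries, as described below. Of the 10 genes, 8 had a promoter entry in RefSeq (GRCm38.p6), and the 250 bases before the start were searched on both strands. These are not the same 8 genes: they include S100a8 and S100a9, which lacked that pattern, and lack S100a10 and Anxa3, which had it. The sequence TGANTCA, the site of AP-1 (the dimer of Fos and Jun proteins), was found in 2 of the 8, beside 6.75% of 32851 promoters of the same length. S100a11 held 2 copies and Anxa2 held 1, in capitals here, while S100a6, which had the largest difference of the 10, held none. The windows are chr3:93520246-93520495 on the plus strand for S100a11, chr9:69453433-69453682 on the plus strand for Anxa2 and chr3:90612644-90612893 on the plus strand for S100a6.
S100a11: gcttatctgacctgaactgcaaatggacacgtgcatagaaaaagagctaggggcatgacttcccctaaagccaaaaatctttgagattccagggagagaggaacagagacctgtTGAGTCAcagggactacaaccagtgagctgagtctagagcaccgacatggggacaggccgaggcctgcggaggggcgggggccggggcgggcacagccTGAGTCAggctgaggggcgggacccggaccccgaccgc
Anxa2: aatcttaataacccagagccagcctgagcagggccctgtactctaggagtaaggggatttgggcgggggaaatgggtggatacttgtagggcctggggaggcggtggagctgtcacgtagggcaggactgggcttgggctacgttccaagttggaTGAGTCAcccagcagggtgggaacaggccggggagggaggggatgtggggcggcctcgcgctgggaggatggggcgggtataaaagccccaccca
S100a6: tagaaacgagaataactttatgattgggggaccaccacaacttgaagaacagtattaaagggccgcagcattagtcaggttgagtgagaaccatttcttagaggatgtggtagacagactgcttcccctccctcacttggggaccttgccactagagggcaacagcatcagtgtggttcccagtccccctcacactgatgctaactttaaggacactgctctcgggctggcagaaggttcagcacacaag

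The matches lay 136 to 130 and 38 to 32 bases before the start of S100a11, and 95 to 89 bases before that of Anxa2. The sequences TTGCNNCAA of C/EBP factors and TTCNNNGAA of STAT factors were in none of the 8 promoters, beside 1.74% and 7.02% of all promoters. A loose form of the NF-kappaB site (GGG, any 5 bases, CC) was in 5 of the 8, beside 45.8% of all. It overlapped no AP-1 match. These matches describe letters in a window and show no binding.

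In 8 of the 10 genes, DKD replicates 2 and 3 stood above every control library, and DKD replicate 1 lay at the control level. Relative to the control mean, those 8 genes were at 0.63 to 2.51 in DKD replicate 2, at 0.69 to 2.57 in DKD replicate 3 and at -0.11 to 0.20 in DKD replicate 1 (log2). S100a6, S100a4, Anxa1, Anxa2 and Anxa3 showed the larger differences, and S100a10, S100a11 and Anxa5 the smaller ones. S100a8 and S100a9 had the lowest levels, with at most 27 and 49 counts in any library. With the quasi-likelihood test of edgeR on all 6 libraries, none of the 10 passed an adjusted p of 0.05, as for 0% of the 19197 genes tested, and their adjusted p ran from 0.154 to 0.969. At an unadjusted p under 0.05 there were 7 members, all higher in DKD, beside 12.2% of all genes that were higher at that level.

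**Figure D1:**
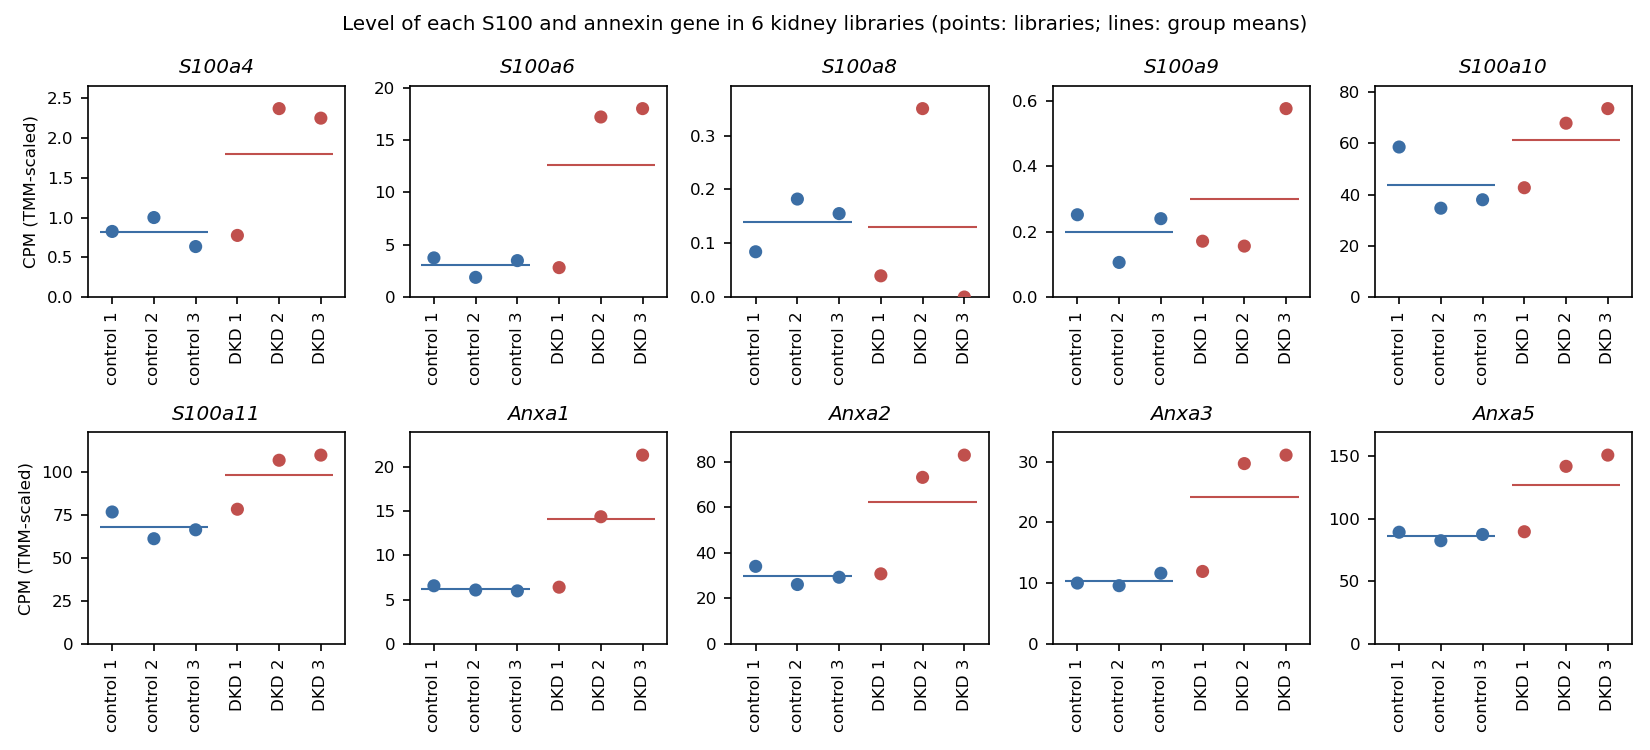
CPM of each of the 10 genes in the 3 control (blue) and 3 DKD (red) libraries, with lines at the group means and every axis from 0. In 8 panels DKD 2 and DKD 3 lie above all other libraries and DKD 1 lies near the controls, while S100a8 and S100a9 stay below 0.6 CPM throughout.

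Leaving out DKD replicate 1 changed the calls. Over all genes, edgeR then called 7 of the 10 higher (S100a4, S100a6, S100a11, Anxa1, Anxa2, Anxa3 and Anxa5), beside 9.67% of 19989 genes called higher. Of the fits on all 6 libraries, DESeq2 called 5 members higher (S100a6, S100a11, Anxa1, Anxa2 and Anxa3), beside 7.08% of genes. On simulated counts DESeq2 made more false calls than edgeR or limma-voom. Those counts were drawn with edgeR's dispersions and held no library set apart like DKD replicate 1. The share of false calls among the DESeq2 calls here was therefore not tested. Limma-voom with sample quality weights, which gave DKD replicate 1 the lowest weight (0.302), called 8 higher, all except S100a8 and S100a9, beside 9.94% of genes. These fits reuse the same libraries and are not independent of each other. The 3 genes whose groups did not overlap on all 6 libraries were S100a11, Anxa3 and Anxa5, beside 13.8% of all genes higher without overlap. Without DKD replicate 1 there were 8, beside 27.4% of all genes. The median log2 difference of the 10 was 0.83, and 1.13 without DKD replicate 1, where that of all genes tested was 0.02 in both fits.

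**Figure D2:**
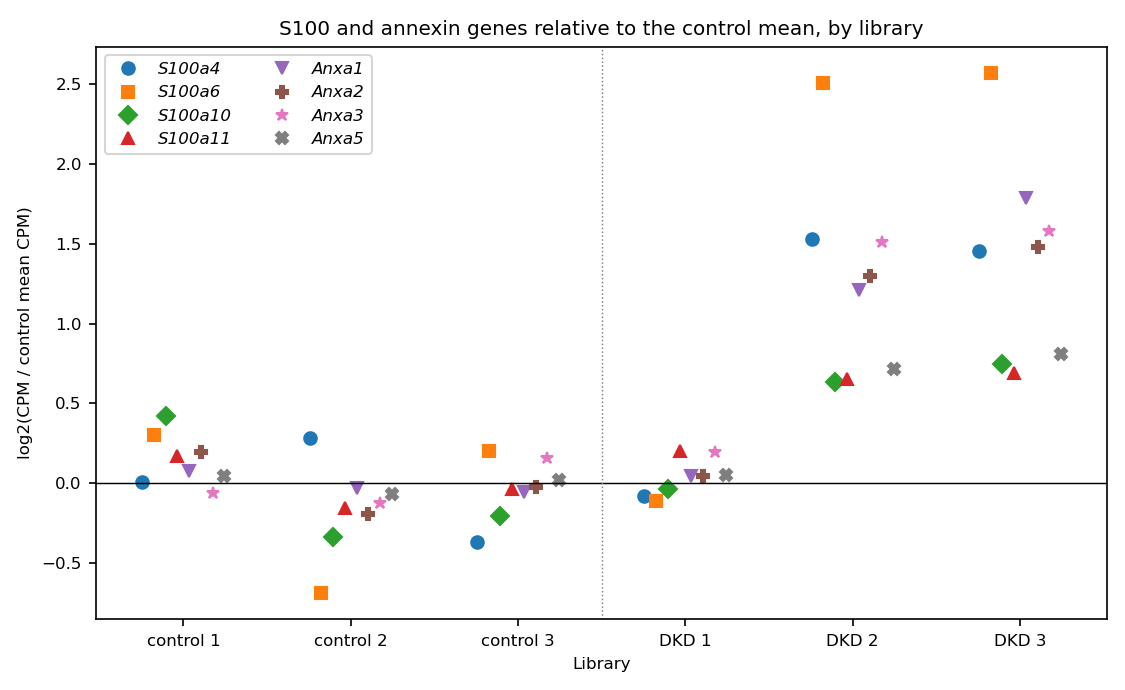
Each of the 8 genes with a control mean above 0.5 CPM, as log2 of its CPM over the control mean, by library. All 8 lie between 0.63 and 2.57 in DKD 2 and DKD 3 and between -0.11 and 0.20 in DKD 1.

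Among the S100 genes, S100a6 (calcyclin, an S100 protein of proliferating and stromal cells) had the largest difference. Its levels were 3.74, 1.88 and 3.48 CPM in control and 2.81, 17.2 and 18.0 CPM in DKD replicates 1 to 3. DKD replicate 1 fell within the controls and the other DKD libraries far above them. S100a6 differed by 2.06 ± 0.68 on the log2 scale (± is the SE throughout; adjusted p = 0.190 with edgeR), and by 2.52 ± 0.29 without DKD replicate 1 (adjusted p = 0.00355 with edgeR). S100a4, known as fibroblast-specific protein and made by fibroblasts and by leukocytes, was scarcer, at 0.825, 1.00 and 0.635 CPM in control and 0.775, 2.37 and 2.25 CPM in DKD kidneys. Those values rest on 45 to 66 counts in the controls and on 59, 183 and 191 counts in DKD. S100a4 differed by 1.13 ± 0.47 in log2 (adjusted p = 0.250 with edgeR), and 1.49 ± 0.31 without DKD replicate 1 (adjusted p = 0.0223).

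S100a10 and S100a11 are the annexin-binding S100 proteins, and both were abundant in control kidneys. S100a10, the light chain of the Anxa2 complex, had 58.6, 34.7 and 38.0 CPM in control and 42.7, 67.9 and 73.6 CPM in DKD. Control replicate 1 was high for this gene, which left a log2 difference of 0.49 ± 0.27 (adjusted p = 0.354 with edgeR) and one of 0.68 ± 0.22 without DKD replicate 1 (adjusted p = 0.0777). It was the one member of the 8 that edgeR did not call in that fit. S100a11, which binds Anxa1, had 76.8, 61.2 and 66.4 CPM in control and 78.4, 107 and 110 CPM in DKD. Its groups did not overlap, though DKD replicate 1 exceeded control replicate 1 by little. S100a11 differed by 0.53 ± 0.16 in log2 (adjusted p = 0.157 with edgeR), and 0.66 ± 0.12 without DKD replicate 1 (adjusted p = 0.0138). A processed copy, S100a11-ps, held 0 counts in every library.

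S100a8 and S100a9, the subunits of calprotectin that neutrophils carry in bulk, were scarce. S100a8 had 5, 12 and 11 counts in control and 3, 27 and 0 in DKD replicates 1 to 3. S100a9 had 15, 7 and 17 counts in control and 13, 12 and 49 in DKD. The high library was DKD replicate 2 for S100a8 and DKD replicate 3 for S100a9, so the pair did not move together. Their log2 differences were -0.12 ± 1.28 and 0.60 ± 0.72 (adjusted p = 0.969 and 0.678 with edgeR), and a difference was not detectable at this depth. The sign of S100a8 turned without DKD replicate 1 (0.29), DKD replicate 3 (0.47) or control replicate 2 (0.10), and that of S100a9 without DKD replicate 3 (-0.29). Beside them, 14 neutrophil markers summed to 2.05 to 2.34 CPM in control and 1.64, 2.98 and 4.48 CPM in DKD. Ly6g, Mpo and Camp had 4 counts in DKD replicate 1 and 0 in every other library, and Elane, Cxcr1 and Stfa2l1 had 0 in all. Ngp (20 counts) and Mmp8 (4 counts) were found in DKD replicate 2 alone, the library where S100a8 was highest. Retnlg had at most 6 counts in any library. Csf3r, the G-CSF receptor, made up the largest share of the sum and had the pattern of the 8 members, with 81, 63 and 69 counts in control and 75, 150 and 244 in DKD (0.82 ± 0.43, adjusted p = 0.334 with edgeR, and 0.0568 without DKD replicate 1). Il1r2 had 6, 0 and 0 counts in control and 4, 20 and 16 in DKD. Of 4 neutrophil markers tested on 6 libraries, Csf3r was the 1 with a fitted difference above 0, and 3 were below 0 (median -0.26). Those 3 were Ltf (-0.81 ± 0.84), Cxcr2 (-0.36 ± 1.29) and Mmp9 (-0.17 ± 0.51). Each had its highest count in DKD replicate 3 (44, 30 and 40), as S100a9 did. The part of neutrophils in the levels of S100a8 and S100a9 was not tested.

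Among the 4 annexins of the set, Anxa3, a phospholipid-binding protein of vesicles and membranes, had the smallest adjusted p. Its levels were 9.98, 9.55 and 11.6 CPM in control and 11.9, 29.7 and 31.1 CPM in DKD. Anxa3 differed by 1.22 ± 0.35 in log2 (adjusted p = 0.154 with edgeR), and 1.54 ± 0.13 without DKD replicate 1 (adjusted p = 0.00147). Anxa1, a glucocorticoid-induced protein that limits inflammation through formyl peptide receptors, had 6.56, 6.08 and 5.98 CPM in control and 6.40, 14.4 and 21.4 CPM in DKD. The controls lay close together and DKD replicate 1 fell among them. Anxa1 differed by 1.18 ± 0.40 in log2 (adjusted p = 0.187 with edgeR), and 1.52 ± 0.20 without DKD replicate 1 (adjusted p = 0.00512).

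Anxa2, which gathers plasminogen and tissue plasminogen activator at the cell surface, had 34.0, 26.0 and 29.2 CPM in control and 30.7, 73.2 and 83.0 CPM in DKD. Anxa2 differed by 1.07 ± 0.35 in log2 (adjusted p = 0.189 with edgeR), and 1.38 ± 0.13 without DKD replicate 1 (adjusted p = 0.00230). Anxa5, the phosphatidylserine binder used to label dying cells, was the annexin with the highest CPM of the 4, at 89.2, 82.4 and 87.4 CPM in control and 89.6, 142 and 151 CPM in DKD. DKD replicate 1 exceeded the highest control by less than 1 CPM. Anxa5 differed by 0.56 ± 0.19 in log2 (adjusted p = 0.190 with edgeR), and 0.75 ± 0.09 without DKD replicate 1 (adjusted p = 0.00449). Anxa5 and S100a11 thus had smaller log2 differences than S100a6, Anxa1 or Anxa3 while being more abundant. The differences between genes were not tested.

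Levels were set against each other per length, as CPM per kilobase of exon (GENCODE M21 gene models, which may differ from those the counts were made with). In control kidneys S100a11 came first at 133 CPM per kilobase, followed by Anxa5 at 48.6, S100a10 at 36.1 and Anxa2 at 7.97. Then came Anxa3 at 2.84, S100a6 at 2.22, Anxa1 at 2.13, S100a4 at 1.40, S100a9 at 0.382 and S100a8 at 0.202 CPM per kilobase. Neighbours whose control libraries overlapped were Anxa5 and S100a10 (46.4 to 50.2 against 28.7 to 48.3), Anxa3 and S100a6 (2.62 to 3.18 against 1.37 to 2.73), S100a6 and Anxa1 (2.05 to 2.25 for Anxa1), and S100a9 and S100a8 (0.203 to 0.484 against 0.121 to 0.262). S100a4 (1.09 to 1.71 CPM per kilobase) lay below Anxa1 in every comparison of control libraries. In DKD the mean of S100a6 was 9.25 CPM per kilobase, above those of Anxa3 (6.65) and Anxa1 (4.83).

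Partners of a complex need not be transcribed in step, and their ratio within a library does not depend on scaling. This comparison was chosen after the values were seen. The ratio of S100a10 to Anxa2 counts was 1.73, 1.33 and 1.30 in control and 1.39, 0.927 and 0.887 in DKD replicates 1 to 3. The mean log2 ratio was 0.53 in control and 0.07 in DKD (two-sided exact permutation p = 0.30, adjusted over 2 pairs 0.40). The ratio of S100a11 to Anxa1 was 11.7, 10.1 and 11.1 in control and 12.3, 7.44 and 5.13 in DKD (exact permutation p = 0.40, adjusted 0.40). With 3 libraries against 3, the smallest p this test can give is 0.10. That floor lies above the threshold used for the genes, so no set of ratios could have passed. The test therefore cannot decide whether the ratios differ between the groups. As a description only, both ratios were lowest in DKD replicates 2 and 3.

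Other S100 genes were listed for comparison. Of 10 found, 5 were tested. The fitted difference was above 0 for 4 of them and below 0 for 1, with a median of 0.36. S100a14, an S100 gene of epithelia, was at 0.183 to 0.318 CPM in control and at 0.0788, 1.51 and 1.38 CPM in DKD, a log2 difference of 1.94 ± 0.93 (adjusted p = 0.300 with edgeR). It was the one gene of these that edgeR called without DKD replicate 1 (2.47 ± 0.41, adjusted p = 0.0108). S100g, calbindin-D9k, which carries calcium through cells of the distal tubule, had 207, 194 and 125 CPM in control and 236, 313 and 226 CPM in DKD. Its groups did not overlap, and S100g differed by 0.56 ± 0.22 in log2 (adjusted p = 0.230 with edgeR). S100a1 (-0.07 ± 0.19), S100a13 (0.36 ± 0.29) and S100a16 (0.13 ± 0.15) overlapped between the groups. S100a3, S100a5, S100a7a, S100b and S100z had at most 25 counts in any library and were not tested on 6 libraries. S100b, a marker of glia and dendritic cells, had 0, 0 and 9 counts in control and 0, 24 and 25 in DKD, and entered the fit without DKD replicate 1 (2.73 ± 1.41, adjusted p = 0.240 with edgeR).

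Neighbouring S100 genes on chromosome 3 had unlike values. The S100 genes there run, in RefSeq order, from S100a1, S100a13, S100a14, S100a16, S100a3, S100a2, S100a4, S100a5, S100a6 and S100a7a to S100a8 and S100a9, with no other coding gene between them. In that row the log2 difference went from 1.94 for S100a14 to 0.13 for S100a16, then to 1.13 for S100a4, 2.06 for S100a6 and -0.12 for S100a8. S100a11 and S100a10 are neighbours of each other, 54 coding genes beyond S100a7l2, and had similar values (0.53 and 0.49). Adjacent genes of the family thus differed in their fitted levels, and these differences between genes were not tested.

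Of 8 other annexin genes 7 were tested. The fitted difference was above 0 for 5 and below 0 for 2 (median 0.21), and edgeR on 6 libraries called none. Anxa8, an annexin of stratified epithelia, was the family member with the largest difference, and every DKD library lay above the controls. It had 0.269, 0.121 and 0.0987 CPM in control and 1.38, 1.65 and 1.26 CPM in DKD, which is 16, 8 and 7 counts against 105, 127 and 107. DKD replicate 1 was as high as the others here, unlike in the 8 members above. Anxa8 differed by 3.13 ± 0.48 in log2 (adjusted p = 0.103 with edgeR), and 3.15 ± 0.53 without DKD replicate 1 (adjusted p = 0.0115). Urothelial markers were high in DKD replicates 2 and 3 as well: Krt5, a keratin of basal epithelial cells, was at 0.12 to 0.81 CPM in control and at 1.01, 8.57 and 4.35 CPM in DKD. The part of urothelium in the level of Anxa8 was not tested.

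Anxa6, the annexin with a doubled core, had 59.2, 55.0 and 57.8 CPM in control and 70.4, 81.1 and 94.5 CPM in DKD, without overlap (0.52 ± 0.12, adjusted p = 0.119 with edgeR; 0.61 ± 0.10 and adjusted p = 0.0123 without DKD replicate 1). Anxa13, an annexin of epithelial cells, went the other way, with 5.99, 5.55 and 4.19 CPM in control and 2.64, 3.76 and 2.58 CPM in DKD (-0.81 ± 0.25, adjusted p = 0.165 with edgeR). All its DKD values lay below the controls, and it was not called without DKD replicate 1 (adjusted p = 0.111). DESeq2 on all 6 libraries called Anxa6 and Anxa8 higher (adjusted p = 0.0106 and 2.97e-06) and Anxa13 lower (adjusted p = 0.0318). Over all genes it called 7.08% higher and 554 of 16874 lower, and the limit on DESeq2 calls given above holds here too. Anxa7 (-0.07 ± 0.12), Anxa11 (0.17 ± 0.15), Anxa4 (0.21 ± 0.10) and Anxa9 (0.66 ± 0.34) overlapped between the groups on 6 libraries. Without DKD replicate 1, Anxa4 and Anxa9 lay above every control, beside 27.4% of all genes (adjusted p = 0.107 and 0.0655 with edgeR). Weighted limma-voom on 6 libraries called both higher (adjusted p = 0.0366 and 0.0439), beside 9.94% of genes. Anxa10 had 0 counts in all libraries.

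**Figure D3:**
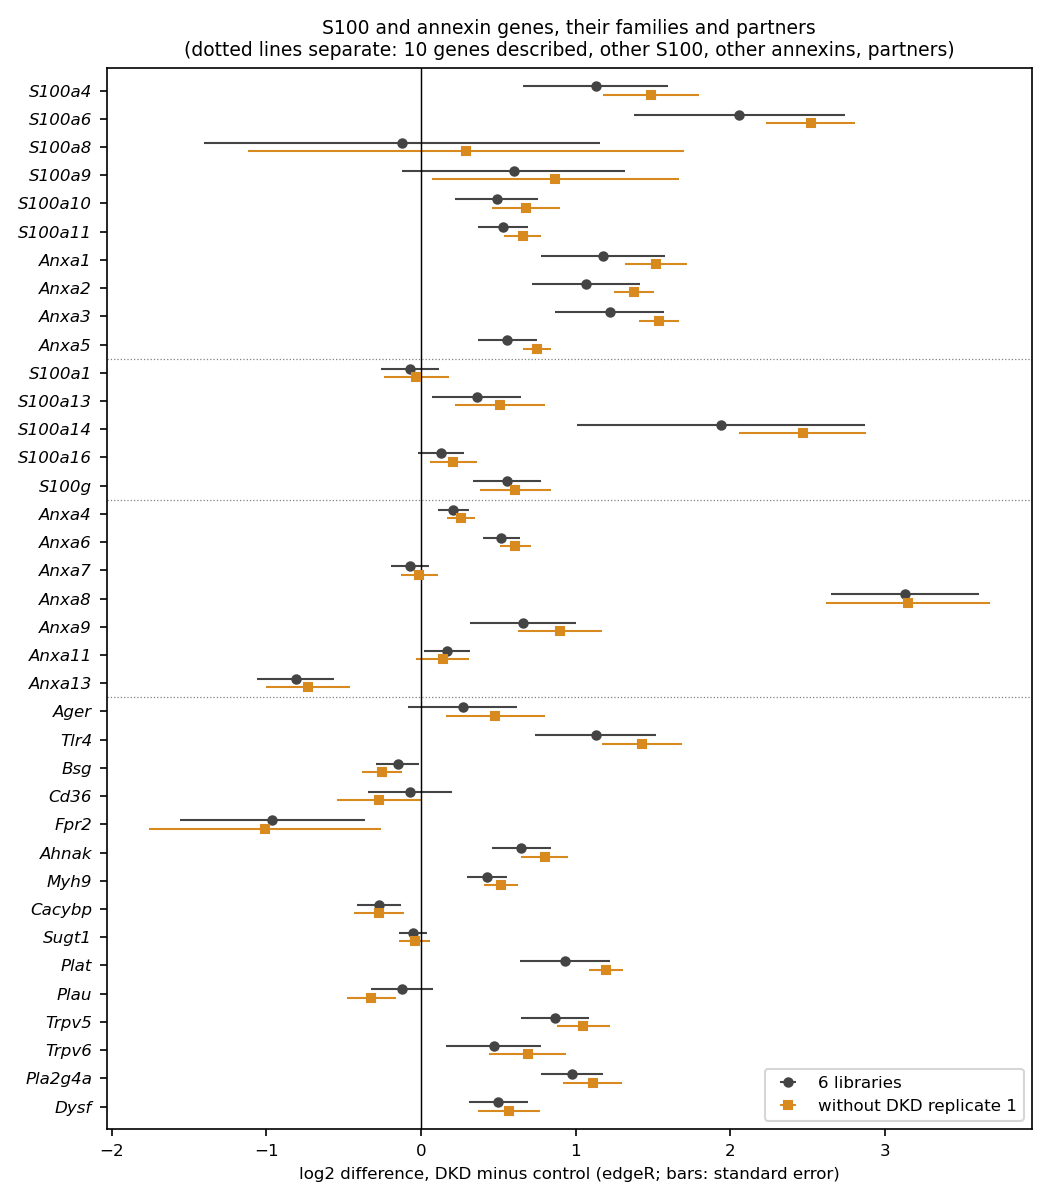
Log2 difference of DKD minus control with its standard error for the 10 genes, other S100 genes, other annexins and their receptors and partners, from edgeR on 6 libraries (circles) and without DKD replicate 1 (squares). Leaving that library out moved S100a6 from 2.06 to 2.52 and Anxa3 from 1.22 to 1.54 and shortened their bars, while Anxa8 stayed near 3.1.

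Receptors and binding partners were 16 genes, of which 15 were tested. The fitted difference was above 0 for 9 and below 0 for 6 (median 0.43). None passed with edgeR on 6 libraries, and 7 were higher at an unadjusted p under 0.05, beside 12.2% of all genes. Without DKD replicate 1, edgeR called 6 higher and 0 lower, beside 9.67% of all genes called higher. Tlr4, the receptor through which calprotectin signals, had 1.43, 1.30 and 1.44 CPM in control and 1.58, 3.11 and 4.43 CPM in DKD (1.13 ± 0.39, adjusted p = 0.192 with edgeR, and 0.0143 without DKD replicate 1). Ager, the receptor RAGE, stayed between 0.919 and 1.67 CPM (0.27 ± 0.35). Without DKD replicate 1 it lay above every control (0.48 ± 0.32, adjusted p = 0.364 with edgeR). Fpr2, the receptor of Anxa1, was at 0.168 to 0.636 CPM in all libraries (-0.96 ± 0.60). Fpr1 had 0, 3 and 0 counts in control and 8, 12 and 19 in DKD. It was not tested on 6 libraries, and was not called without DKD replicate 1 (3.49 ± 1.40, adjusted p = 0.141 with edgeR). Bsg and Cd36, both described as receptors for S100a8 and S100a9, overlapped between the groups (-0.15 ± 0.14 and -0.07 ± 0.27). Without DKD replicate 1, Bsg lay below every control (-0.25 ± 0.13, adjusted p = 0.229 with edgeR).

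Plat, Ahnak, Trpv5 and Trpv6 encode proteins that dock on S100a10 or Anxa2, and edgeR called none of them on 6 libraries and the first 3 higher without DKD replicate 1. Plat, tissue plasminogen activator, had 24.4, 21.3 and 24.4 CPM in control and 25.0, 51.1 and 57.0 CPM in DKD, the same order of libraries as Anxa2 in DKD (0.93 ± 0.29, adjusted p = 0.174 with edgeR; 1.20 ± 0.11 and adjusted p = 0.00177 without DKD replicate 1). Plau, urokinase, did not share it, at 431, 396 and 569 CPM in control and 541, 372 and 376 CPM in DKD. Ahnak, a giant scaffold bound by S100a10 and Anxa2, differed by 0.65 ± 0.19 (adjusted p = 0.152 with edgeR, and 0.0157 without DKD replicate 1). Trpv5, an epithelial calcium channel that the S100a10 and Anxa2 complex carries to the membrane, had 14.1, 13.5 and 10.2 CPM in control and 16.6, 24.0 and 28.4 CPM in DKD. Its groups did not overlap (0.87 ± 0.22, adjusted p = 0.136 with edgeR, and 0.0103 without DKD replicate 1), while those of Trpv6 did (0.47 ± 0.31, adjusted p = 0.431 with edgeR, and 0.106 without DKD replicate 1). Without DKD replicate 1, Trpv6 lay above every control as well.

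Pla2g4a, the cytosolic phospholipase that annexins and S100a10 hold back, was above the controls in each DKD library, at 5.10, 5.39 and 6.21 CPM in control and 8.85, 10.4 and 13.7 CPM in DKD (0.98 ± 0.20, adjusted p = 0.106 with edgeR, and 0.0119 without DKD replicate 1). Myh9, the non-muscle myosin that S100a4 takes apart, differed by 0.43 ± 0.13 (adjusted p = 0.166 with edgeR, and 0.0226 without DKD replicate 1), and Dysf, a membrane repair protein that works with annexins, by 0.50 ± 0.19. Cacybp and Sugt1, which bind S100a6, did not follow it: their log2 differences were -0.27 ± 0.14 and -0.05 ± 0.09, and their CPM overlapped between the groups.

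The genes whose log2 CPM was most like that of a member over the 6 libraries were picked by Pearson correlation, among genes with a mean of at least 1 CPM. For S100a6 they were Styk1, Cd14 and Ncapg2 (r = 0.996, 0.995 and 0.995). Cd14, the monocyte co-receptor of Tlr4 that injured tubules also make, was at 2.79 to 4.64 CPM in control and at 3.31, 12.4 and 12.3 CPM in DKD. For Anxa2 they were Lcp1, Lipe and Nfe2l2 (r = 0.997, 0.996 and 0.996). Lcp1, an actin bundler of leukocytes, was at 24.4 to 27.5 CPM in control and at 26.9, 50.6 and 55.6 CPM in DKD. All these genes were high in DKD replicates 2 and 3 and low in the other libraries, and the correlations are descriptions without a test. For S100a8 the rule gave Rbm48, Tmem60 and Zfp930, which varied little between libraries (Rbm48 from 6.48 to 7.94 CPM), and S100a8 itself rests on at most 27 counts.

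Several marker lists of other cells were highest in DKD replicates 2 and 3, as the 8 members were. Injured tubule markers (12 genes, of which Krt7, Krt18, Spp1 and Clu had the smallest p with edgeR) summed to 943 to 1027 CPM in control. In DKD they summed to 1302, 2969 and 3332 CPM, and all 12 had a higher fitted level. Unlike the sum of the 10 genes, that of the injured tubule markers lay above every control in DKD replicate 1 too. Spp1 and Clu made up most of it there (762 and 280 CPM). Both lay above every control in DKD replicate 1, as did Krt7 (109 CPM against 67.7 to 81.9), Krt18 and Lcn2. Havcr1 (1.85 CPM against 1.03 to 3.39), Krt8, Krt19, Krt20, Vcam1, Cd44 and Sox9 did not. Macrophage and monocyte markers summed to 137 to 165 CPM in control and to 141, 262 and 328 CPM in DKD, with 13 of 13 tested at a higher fitted level. One of the 13, Csf1r, was at only 0.03 ± 0.17 and at -0.17 ± 0.12 without DKD replicate 1, with 62.3 to 74.1 CPM in control and 89.1, 58.2 and 66.3 CPM in DKD. T and NK cell markers summed to 5.00 to 5.48 CPM in control and to 5.88, 16.5 and 19.2 CPM in DKD. Proximal tubule markers ran opposite, at 14819 to 16399 CPM in control and 12973, 9646 and 9407 CPM in DKD, and all 8 had a lower fitted level. The part of each of these cell types in the levels of the S100 and annexin genes was not tested.

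The sums of fibroblast and podocyte markers lay above the controls in all DKD libraries. Fibroblast and mesenchymal markers summed to 129 to 172 CPM in control and to 278, 274 and 382 CPM in DKD, so DKD replicate 1 was as high as DKD replicate 2. The fibroblast genes were not alike: Col1a1, Col1a2 and Col3a1, which encode fibrillar collagens, were at 23.3, 58.2 and 71.4 CPM in DKD replicate 1, above every control (at most 9.25 CPM for Col1a1 and 20.6 CPM for Col3a1). Acta2, Tagln and Lum were within the controls in DKD replicate 1 (18.7, 10.2 and 0.538 CPM) and above them in DKD replicates 2 and 3. S100a4 was at 0.775 CPM in DKD replicate 1, within the controls, and the part of fibroblasts in its level was not tested. Podocyte markers, whose 6 genes were all detected, summed to 165 to 208 CPM in control and to 264, 270 and 348 CPM in DKD. The sum of the 10 S100 and annexin genes was 280, 223 and 243 CPM in control and 263, 454 and 490 CPM in DKD. DKD replicate 1 thus lay within the controls for that sum, as it did for the sum of macrophage markers. Csf1r made up most of the latter there (89.1 of 141 CPM). C1qa, C1qb, Lyz2, Ccr2, Itgam and Cx3cr1 lay below every control there, and Cd68 and Mrc1 above. Besides that of the hepatocyte genes, marker sums above the controls there were those of injured tubule, T and NK cell, endothelial, fibroblast and podocyte markers. The margin was small for T and NK cells (5.88 against 5.48 CPM) and endothelium (304 against 301 CPM). Cd3d, Cd8a, Nkg7, Gzmb, Pecam1, Cdh5 and Plvap lay above every control there. Cd3e, Trac, Klrb1c and Kdr lay below, and the other T, NK and endothelial markers within.

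**Figure D4:**
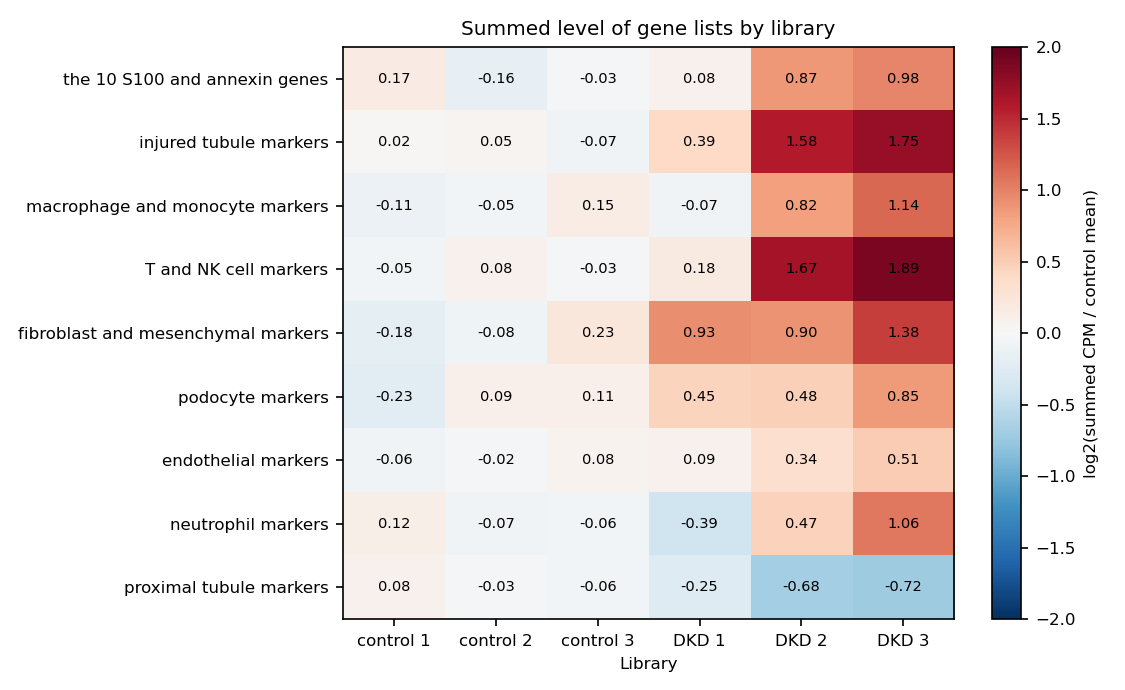
Summed CPM of the 10 genes and of marker lists in each library, as log2 of the ratio to the control mean (red higher, blue lower, value in each cell). The 10 genes are at 0.08 in DKD 1 and at 0.87 and 0.98 in DKD 2 and DKD 3, where fibroblast markers are at 0.93 in DKD 1.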

How the data were processed

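Per the labels, whole kidney RNA was poly(A)-selected and sequenced as strand-marked paired-end libraries. The authors deposited 1 table of raw counts per gene. The submitters' processing notes list GRCm39 and the tools fastp, HISAT2, StringTie and edgeR, with no version or role. Annotation and strand setting are also not given in the sources used here, so reads of overlapping genes may be shared. Symbols came from a reference table and matched 55141 IDs. Groups and replicate numbers follow the labels.

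Counts were analysed in R 4.3.3 with edgeR 4.0.16 (robust quasi-likelihood, TMM factors, default filter, two-sided). P-values were Benjamini-Hochberg adjusted over 19197 genes, with a threshold of 0.05. Standard errors come from the test statistic, and log2 values for correlations used a prior count of 2. DESeq2 1.42.0, limma-voom (limma 3.58.1), RLE factors, library size alone, 2 filters, a replicate block and leaving out each library were alternatives. EdgeR, DESeq2 and limma-voom were tested on simulated data, where DESeq2 made more false calls than the others. The simulated data used edgeR's dispersions and held no library set apart like DKD replicate 1. The members and gene lists were chosen with earlier results of these data known. The rule for named genes took the 10 members, the other S100 and annexin genes, listed partners, up to 4 markers of each cell type list and the 3 genes most like S100a8, S100a6 and Anxa2. Marker lists also covered B and plasma cells, endothelium, collecting duct and urothelium. Genes named outside the rule (S100a11-ps, S100a2, Csf1r, Il1r2, Acta2, Tagln, Lum, Jchain) were chosen after their values were seen. So were the injured tubule genes Lcn2, Havcr1, Krt8, Krt19, Krt20, Vcam1, Cd44 and Sox9. The same holds for C1qa, C1qb, Lyz2, Ccr2, Itgam, Cx3cr1, Cd3e, Trac, Klrb1c and Kdr. It also holds for the neutrophil genes Ly6g, Mpo, Elane, Cxcr1, Camp, Stfa2l1, Ngp, Mmp8 and Retnlg. RefSeq promoters and gene order are of GRCm38.p6.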

Additional observations from a re-analysis of the deposited data

How the results depend on the processing

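No member was called by edgeR on all 6 libraries under RLE factors, library size alone, the CPM 1 filter (3 libraries), no filter, the replicate block or counts divided by 4 (an alternative added after the data were seen, since low counts gather at multiples of 4). The count of members past the threshold rested on the tool and on DKD replicate 1. It was 5 with DESeq2 and 8 with weighted limma-voom. Leaving out single libraries gave 0 to 7, and the 7 came without DKD replicate 1. Without that library it was 7 of the 8 members tested with counts divided by 4. It was 8 of 10 with DESeq2 and with unweighted limma-voom. These fits without DKD replicate 1 were all added after the data were seen. Over all genes the counts were 1749 with DESeq2, 3397 with weighted limma-voom and 4 without a filter, and 0 to 3101 when single libraries were left out (3101 without DKD replicate 1, 7 without control replicate 1, 1 without DKD replicate 3). Without DKD replicate 1 they were 4658 of 19979 genes with DESeq2 (2630 higher) and 3593 of 19989 with unweighted limma-voom (2288 higher). With counts divided by 4 they were 3574 of 16514 (2248 higher). In edgeR, 3694 genes had an unadjusted p under 0.05. The members' median of 0.83 was 1.01 with library size alone, where the median of all genes was 0.17 in place of 0.02, and 0.60 to 1.13 when single libraries were left out. The sign of S100a8 turned with library size alone (0.03), with DESeq2 without DKD replicate 1 (0.30) and on leaving out single libraries (-2.77 to 0.47), and that of S100a9 turned without DKD replicate 3 (range -0.29 to 0.91). The other 8 members kept a positive sign in every alternative that tested them. The labels do not say whether replicate numbers pair the libraries. The deviations of same-numbered libraries correlated at 0.02 to 0.03. Libraries of unlike number were not compared, so these values do not show whether the numbers are pairs. With the replicate block 0 members and 0 genes passed. Depth limits S100a8, S100a9 and S100a4 most.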

Other observations

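The list of collecting duct and urothelial genes held a contrast of its own. Psca, a surface protein of urothelium, was at 0.242 to 1.46 CPM in control and at 5.94, 28.3 and 33.2 CPM in DKD replicates 1 to 3, and differed by 4.50 ± 0.91 in log2 (adjusted p = 0.112 with edgeR, and 0.00753 without DKD replicate 1). Upk1b, which builds the plaques of the urothelial surface, was at 0.121 to 1.62 CPM in control and at 2.34, 10.2 and 7.08 CPM in DKD. Aqp3, a water channel of the collecting duct, was lower in each DKD library, at 104 to 122 CPM in control and 99.6, 74.2 and 86.1 CPM in DKD (-0.39 ± 0.13, adjusted p = 0.185 with edgeR, and 0.0312 without DKD replicate 1). The labels do not say how much renal pelvis each sample held, and its part in these levels was not tested.

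B and plasma cell markers summed to 8.78 to 18.7 CPM in control, to 3.13 CPM in DKD replicate 1 and to 65.4 and 65.2 CPM in DKD replicates 2 and 3. Most of that sum was Jchain, the joining chain of secreted antibodies, with 5.74, 13.9 and 7.34 CPM in control and 0.841, 53.8 and 56.1 CPM in DKD. Endothelial markers summed to 273 to 301 CPM in control and to 304, 362 and 406 CPM in DKD.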
